A study of Mus musculus with 9 samples.

Results

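The genes described here are the interleukins, the tumour necrosis factor (TNF) superfamily and their receptors, in mouse colon after abdominal or whole-body irradiation with and without the compound CF-2. Members were the genes of the deposited table whose symbol starts with Il and a digit, with Tnfsf or with Tnfrsf, together with Tnf, Lta and Ltb; 2 interleukin genes are not reported here. The rule found 112 members among the 33539 genes of the table, of which 76 are interleukin-named and 36 TNF-named. By role they comprise 47 ligands and antagonists, 60 receptors, 3 other interleukin-named genes and 2 antisense transcripts. All tissue came from wild-type male C57BL/6 mice, and each group had 3 mice. Con mice were not irradiated and got the vehicle, called saline in the design text and PBS in the sample labels. IR mice received 13 Gy. The IR+CF-2 group was irradiated alike and was injected intraperitoneally 4 times with CF-2 at 7.5 mg/kg, the first 1 h before irradiation and the others 24, 48 and 72 h after it. Colon was taken at 84 h in every group. CF-2 is a code name, and no group received it without irradiation. The age of the mice is 8 weeks in one label and 6 weeks in another, and irradiation is abdominal in one and of the total body in the other.

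Interleukins are secreted proteins by which immune, epithelial and stromal cells act on each other, and each binds a receptor that belongs to a family with shared chains. Members of the IL-1 family signal through adaptors shared with Toll-like receptors, and most others through Janus kinases and STAT proteins. TNF superfamily ligands bind receptors that recruit TRAF adaptors or, in the death receptors, the machinery of apoptosis. In the gut these systems are known for epithelial defence and repair, for the upkeep of lymphoid tissue and for inflammation after injury.

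RNA was selected with oligo(dT) beads and sequenced in 9 libraries, numbered as labelled (2 to 4 for Con, 2 to 4 for IR, 1 to 3 for IR+CF-2), with totals from 34.4 to 44.3 M counts. Members took from 0.119 to 0.213% of the counts of a library. Epithelial markers were abundant everywhere, with 7 markers summing to between 8740 and 11700 CPM, the count scaled to a library total of 1000000. The level of Hoxa13, a gene of the distal gut, was 44, 0.966 and 7.96 CPM in Con, 2.82, 1.68 and 0.771 CPM in IR and 59.5, 78.8 and 59.6 CPM in IR+CF-2. The stretch of colon sampled and CF-2 treatment therefore cannot be told apart. With the level of Hoxa13 as a term, 0 members passed the edgeR test in any of the 3 comparisons, although 26 had an unadjusted p under 0.05 in IR against Con, 3 in IR+CF-2 against IR and 21 in IR+CF-2 against Con. These are bulk libraries, in which fewer cells of a type and less RNA per cell cannot be told apart. Fold changes below are log2 estimates ± standard error from an edgeR fit across all genes, and a member rose or fell only where its Benjamini-Hochberg adjusted p over all tested genes was under 0.05.

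Receptors were the more abundant side of the system. In FPKM, which divides by transcript length and so allows levels of different genes to be compared, 31 of the 60 receptors and 14 of the 47 ligands and antagonists had a mean of at least 1 over the 9 libraries. The median of these means was 1.16 FPKM for receptors and 0.226 FPKM for ligands and antagonists. The highest mean was that of Tnfrsf1a, which encodes the widely expressed TNF receptor with a death domain, where Con had 31 ± 2.69 FPKM, IR 44.8 ± 8.24 and IR+CF-2 54.6 ± 14.5 (SD, n = 3). Il13ra1, a chain of the IL-4 and IL-13 receptor, followed at 31.6 ± 6.41, 47.5 ± 14.7 and 46.2 ± 12.4 FPKM, and Il17rc, a chain of the IL-17 receptor, at 43 ± 3.4, 33.2 ± 3.7 and 38.9 ± 5.51 FPKM. The ranges of these 3 genes over the libraries overlap, so their order is not resolved. Il18, a cytokine that gut epithelium stores as an inactive precursor, was the highest ligand gene at a mean of 33.4 FPKM, and ranged from 8.72 to 122 CPM within the 3 IR+CF-2 libraries alone. At the other end, 27 members were too low to be tested, 19 of them ligands and 6 receptors. The highest level among these 27 in any library was 0.707 CPM, or 30 counts. Among them were Il10, Il5, Il13, Il17a, Il2 and Il12b.

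**Figure D1:**
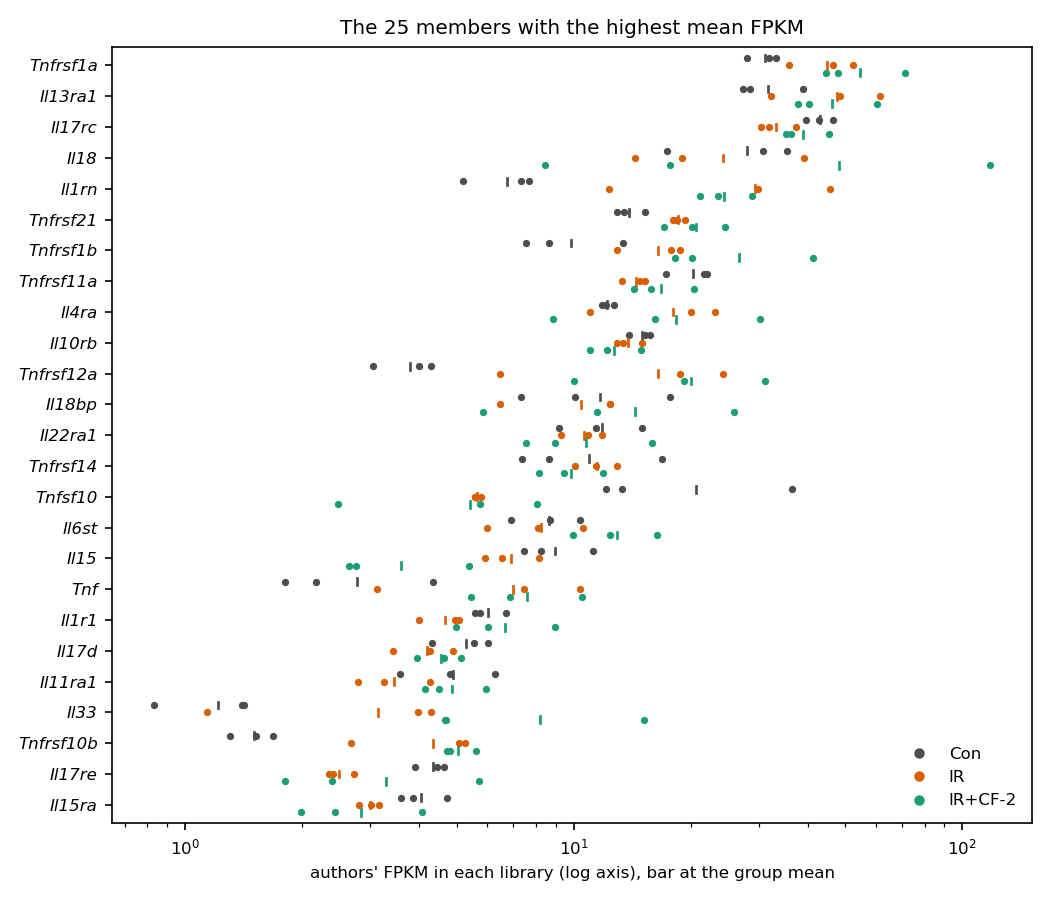
Levels of the 25 members with the highest mean FPKM, in each of the 9 libraries on a log axis, with a vertical bar at the mean of each group of 3. Tnfrsf1a, Il13ra1 and Il17rc lead with overlapping ranges, and Il18 has the widest spread within IR+CF-2.

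Of the 112 members, 85 had enough counts to be tested, 51 interleukin-named and 34 TNF-named. In IR against Con, which asks how the colon stood 84 h after irradiation, 3 of 85 passed the test (3.53%, where 3.21% of all 19174 tested genes passed). Tnfrsf10b and Il1rn rose (2.37% of all tested genes were higher) and Ltb fell (0.845% were lower). With RLE or upper quartile scaling these were 2 members higher and 0 lower. A further 31 members had an unadjusted p under 0.05 without passing, 34 in all. The 3 libraries of IR lay wholly above those of Con for 11 members and wholly below for 23, where 22.4% and 14.2% of all tested genes did so. The median fold change of the 85 members was -0.16 and that of all tested genes was 0.01, and leaving out 1 library at a time moved the count of calls between 0 and 17. It was 0 without any one of Con 2, Con 3, Con 4, IR 2, IR 3 or IR+CF-2 3, with 20 to 32 members then at an unadjusted p under 0.05, and it was 9 without IR 4 and 17 without IR+CF-2 2.

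In IR+CF-2 against IR, the comparison that bears on the compound, a single member passed the test, the IL-36 ligand gene Il1f8, which was lower (1.18% of 85, where 0.302% of all tested genes passed, 0.0574% higher and 0.245% lower). Il1f8 was tested only because of its counts in IR, so the filter favoured this direction. With a filter of at least 1 CPM in 3 libraries, 0 members passed. A total of 13 members had an unadjusted p under 0.05. The groups did not overlap for 10 members higher in IR+CF-2 and 2 lower, where 9.76% and 7.01% of all tested genes were so placed. The members had a median fold change of 0.20 and all tested genes one of 0.02. This count was 0 without Con 2, Con 3, Con 4, IR 2, IR 3, IR+CF-2 1 or IR+CF-2 3, with 7 to 19 members then at an unadjusted p under 0.05, and 3 without IR+CF-2 2.

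In IR+CF-2 against Con, 22 of 85 members passed, 13 higher and 9 lower (25.9%, where 19.2% of all tested genes passed, 11.2% higher and 7.95% lower). They comprised 7 of the 28 tested ligands and antagonists and 15 of the 54 tested receptors. The groups did not overlap for 19 members higher and 14 lower, where 26.3% and 14.9% of all tested genes were so placed, and 37 members had an unadjusted p under 0.05. The median fold change was 0.05 for the members and 0.02 for all tested genes. The count fell to 8 without Con 2, 6 without Con 3, 3 without Con 4, 8 when IR+CF-2 1 was dropped and 10 with IR+CF-2 3 removed, and rose to 36 when IR+CF-2 2 was left out. The 3 members called in IR against Con are among these 22, but both comparisons use the same Con libraries. Among the 13 members called higher, IR 4 was the lowest of the IR libraries for 11, and IR+CF-2 1 the highest of the IR+CF-2 libraries for 10.

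**Figure D2:**
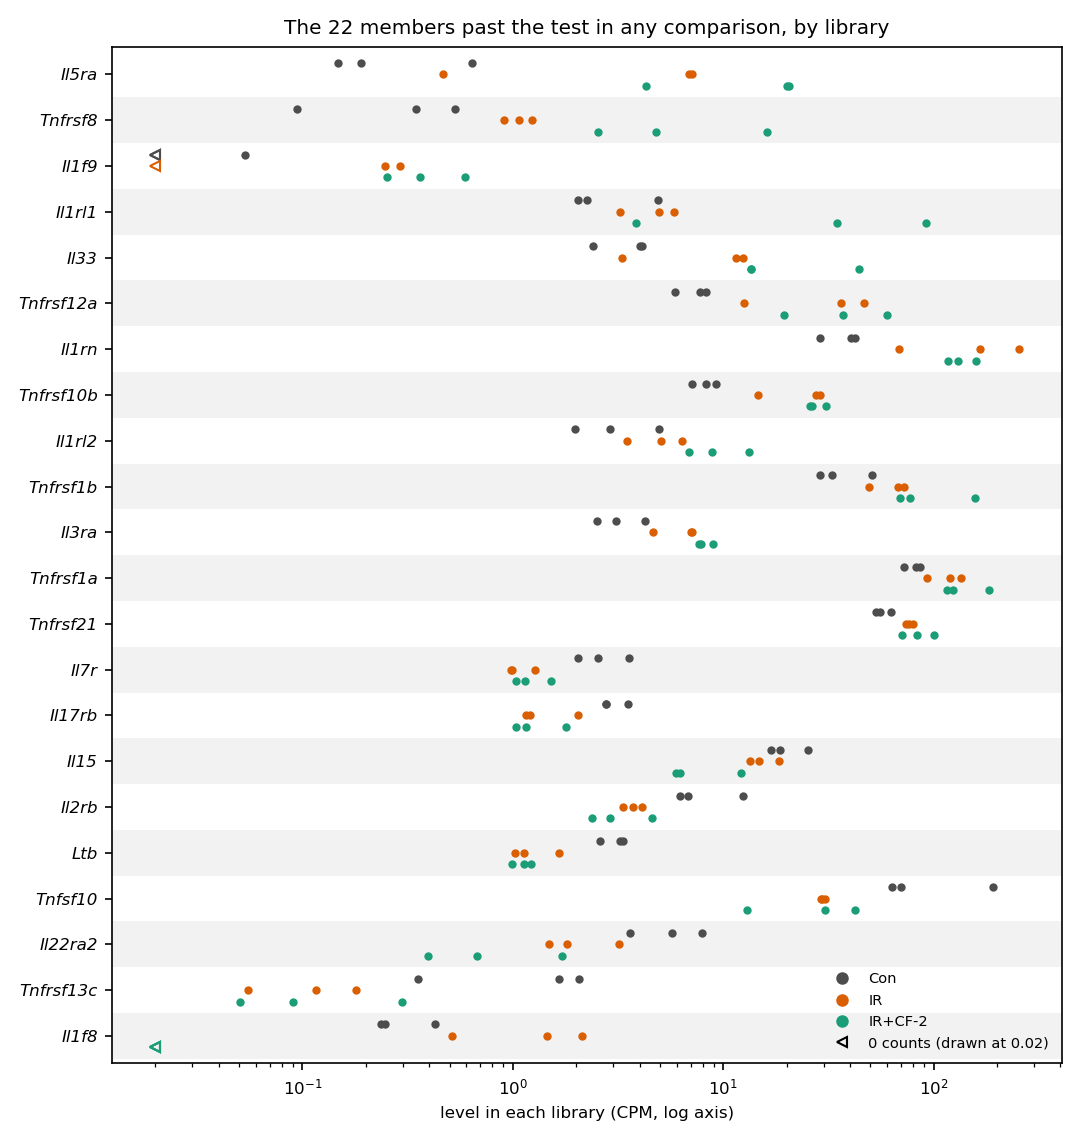
Level of each of the 22 members past the test in any comparison, in CPM on a log axis, with 1 point for each library and open triangles for 0 counts. Genes are ordered by the fold change of IR+CF-2 against Con, so that those higher in IR+CF-2 stand at the top; all 3 IR+CF-2 libraries are at 0 for Il1f8.

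**Figure D3:**
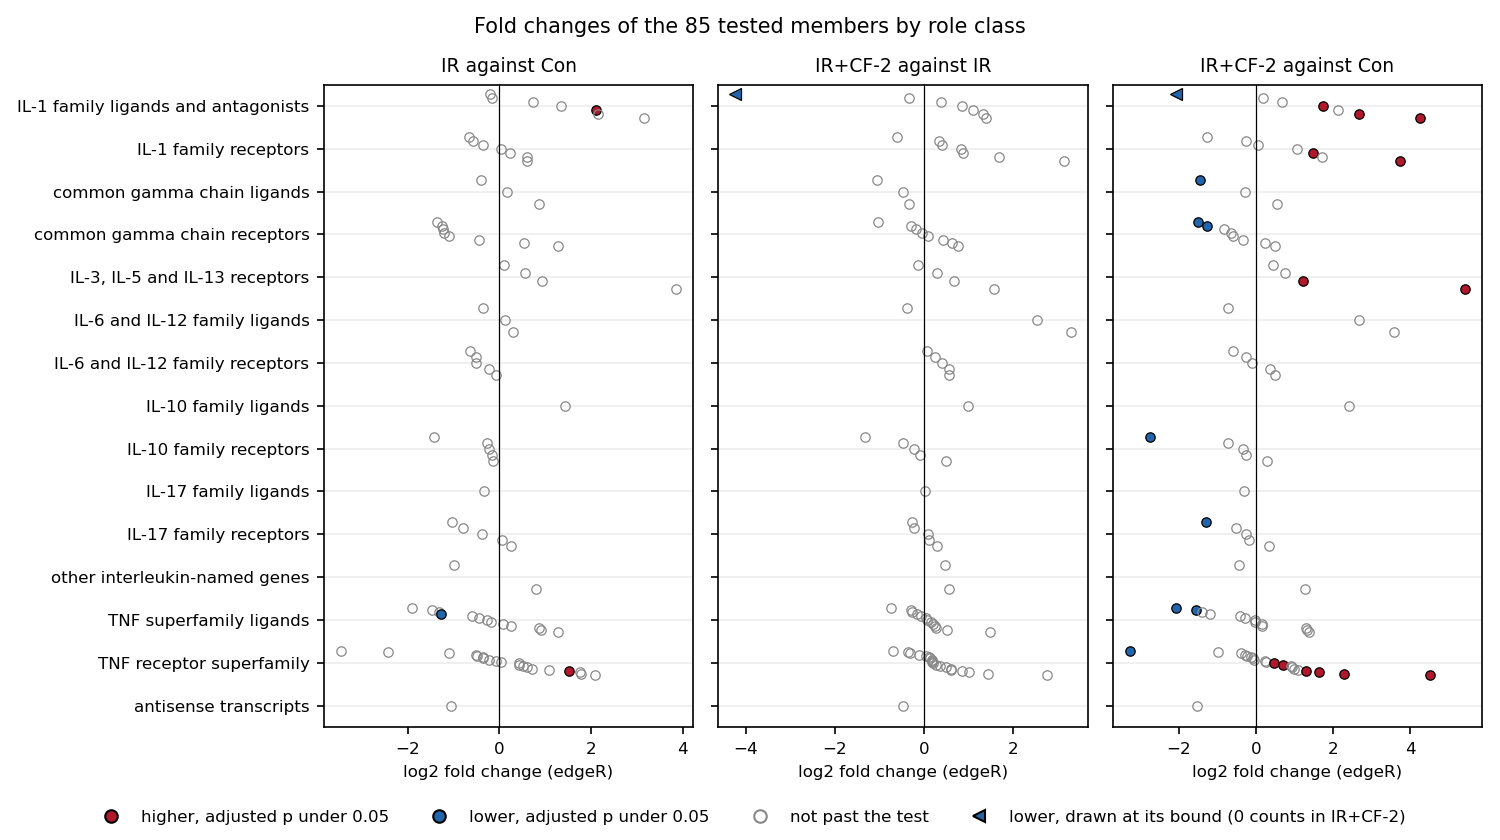
Log2 fold changes of the 85 tested members by role class in the 3 comparisons, 1 point per member, filled where the adjusted p is under 0.05. Il1f8 is drawn as a triangle at its bound where IR+CF-2 has 0 counts; 3 points are filled in IR against Con, 1 in IR+CF-2 against IR and 22 in IR+CF-2 against Con.

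Ligand genes of the IL-1 family passed the test in both directions in IR+CF-2 against Con. There 3 of its 7 tested ligands and antagonists rose and 1 fell, where 11.2% of all tested genes were higher and 7.95% lower. Il1f8 and Il1f9, counted among these, were tested only because of their counts in the group where each was highest. The share of this family is therefore not compared with that of other families. Il1rn (chromosome 2, 24336853 to 24351494, plus strand, GRCm38) encodes the IL-1 receptor antagonist, which occupies the receptor without signalling. It stood at 40.5, 42.5 and 28.8 CPM in the Con libraries, at 166, 254 and 68.1 in IR, and at 159, 117 and 130 in IR+CF-2. Every irradiated library was above every Con library, and IR 4 was the lowest of the irradiated ones. Il1rn rose by 2.10 ± 0.40 in IR against Con (adjusted p = 0.0374) and by 1.75 ± 0.39 in IR+CF-2 against Con (adjusted p = 0.0206), and the difference of IR+CF-2 from IR was -0.34 ± 0.38 (adjusted p = 0.729). The first call was lost without Con 2, Con 3, Con 4, IR 2, IR 3 or IR+CF-2 3 (adjusted p between 0.0592 and 0.179), and the second without Con 2, Con 3, Con 4, IR+CF-2 1 or IR+CF-2 3 (between 0.0512 and 0.0818). The receptor that Il1rn blocks, Il1r1, had fold changes of -0.36 ± 0.21 in IR against Con and 0.05 ± 0.21 in IR+CF-2 against Con, both short of the test (adjusted p = 0.33 and 0.891).

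Il1rn is the only interleukin-named member called in IR against Con, so the letters before its RefSeq start are shown, 250 bases before to 50 after (build GRCm38.p6, plus strand, chr2:24336610-24336909). Capitals mark a match to the AP-1 motif TGANTCA, whose first base lies at -141 from the start.
Il1rn: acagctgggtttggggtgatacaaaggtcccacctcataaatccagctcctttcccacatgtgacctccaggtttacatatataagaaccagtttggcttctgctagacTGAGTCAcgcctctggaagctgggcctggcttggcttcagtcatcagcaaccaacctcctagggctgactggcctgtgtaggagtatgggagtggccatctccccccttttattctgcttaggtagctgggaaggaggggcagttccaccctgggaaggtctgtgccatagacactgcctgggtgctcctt
Motifs were searched on both strands in 300-base windows, and 7.81% of 32851 RefSeq windows hold an AP-1 match. A second RefSeq start of the gene (chr2:24345041-24345340, plus strand) has no match to the AP-1, STAT, kappaB or p53 motif searched, which says only that these letters are not in this window. A match is a description of the letters and not a measured site.

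The IL-36 genes, named in the table by their older symbols, went in different directions. Il1f8 (chromosome 2, 24153161 to 24160519, plus strand) encodes IL-36 beta, a cytokine of barrier epithelia. Its levels were 0.246, 0.236 and 0.425 CPM in Con and 1.45, 2.14 and 0.514 CPM in IR, which is 10 to 16 counts and 20 to 78 counts per library. All 3 IR+CF-2 libraries had 0 counts. Il1f8 was tested only because of its counts in IR, the group where it was highest. Taken against the mean of the 3-count floors of the IR+CF-2 libraries (0.0725 CPM), Il1f8 in IR+CF-2 was at least 18.9-fold lower than in IR (adjusted p = 0.0396) and at least 4.17-fold lower than in Con (adjusted p = 0.0157). In IR against Con its fold change was 2.15 ± 0.59, with no overlap, and did not pass (adjusted p = 0.0866). The call against IR was lost without Con 2, Con 3, Con 4, IR 2, IR 3, IR+CF-2 1 or IR+CF-2 3 (adjusted p between 0.0541 and 0.148), and that against Con without Con 4 (0.053).

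Il1f9 (chromosome 2, 24186476 to 24193568, plus strand) encodes IL-36 gamma, a close relative in the same cluster. It had 0, 0 and 2 counts in Con, 10, 9 and 0 in IR, and 24, 10 and 16 in IR+CF-2, so Con was below 3 counts in every library. Il1f9 was tested only because of its counts in IR+CF-2, the group where it was highest, so the filter favoured this direction. Il1f9 rose in IR+CF-2 against Con (adjusted p = 0.0444), and the ratio of depth-scaled summed counts was 24.2, with an exact interval for counting error alone from 6.37 to 206. This call was lost without Con 2, Con 3, Con 4, IR 2, IR 3, IR+CF-2 1 or IR+CF-2 3 (adjusted p between 0.0627 and 0.137). Another IL-36 gene, Il1f6, did not exceed 0.22 CPM and was not tested. Their shared receptor gene Il1rl2 (chromosome 1, 40324610 to 40367562, plus strand) was at 4.95, 1.98 and 2.89 CPM in Con, 6.39, 5.05 and 3.5 in IR and 8.87, 13.3 and 6.88 in IR+CF-2. Il1rl2 rose by 1.48 ± 0.37 in IR+CF-2 against Con (adjusted p = 0.028), and its difference from IR, 0.88 ± 0.36, was short of the test (adjusted p = 0.315). That call was lost without Con 3, Con 4 or IR+CF-2 1 (adjusted p = 0.0866, 0.1 and 0.0687). The ligand Il1f8 and the receptor Il1rl2 were thus placed oppositely in IR+CF-2.

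Il33 and its receptor gene Il1rl1 each rose in IR+CF-2 against Con, but not in step across the libraries. Il33 (chromosome 19, 29925114 to 29960718, plus strand) encodes an alarmin, a cytokine held in the nucleus of epithelial and stromal cells and released on damage. Its levels were 4.09, 2.4 and 4.04 CPM in Con, 11.5, 12.4 and 3.29 in IR, and 44, 13.6 and 13.5 in IR+CF-2. IR 4 lay within the Con range, and every IR+CF-2 library lay above every other library. Il33 rose by 2.67 ± 0.60 in IR+CF-2 against Con (adjusted p = 0.0208), and was 1.35 ± 0.58 in IR against Con and 1.32 ± 0.57 in IR+CF-2 against IR (adjusted p = 0.199 and 0.338). Without IR+CF-2 1 the change against Con was 1.85 (adjusted p = 0.0611), and the call was also lost without Con 2, Con 3 or Con 4 (between 0.0662 and 0.0764).

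Il1rl1 (chromosome 1, 40429570 to 40465415, plus strand) encodes ST2, the IL-33 receptor known from mast cells, type 2 lymphoid cells and regulatory T cells. It was at 4.92, 2.03 and 2.26 CPM in Con, 4.94, 5.85 and 3.24 in IR, and 92.1, 3.86 and 34.8 in IR+CF-2. The high values were in IR+CF-2 1 and 3, while IR+CF-2 2 lay within the range of Con. Il1rl1 rose by 3.75 ± 0.93 in IR+CF-2 against Con although the groups overlap (adjusted p = 0.0275), and limma-voom did not call it (adjusted p = 0.152). Without IR+CF-2 1 the change was 2.57 (adjusted p = 0.0839), and the call was also lost without Con 2, Con 3, Con 4 or IR+CF-2 3 (between 0.0568 and 0.101). The 6 mast cell markers summed to 77.5 to 102 CPM in Con, 30.4 to 76.1 in IR and 39 to 50.5 in IR+CF-2, nearly all of it Kit, which other cells also express and which was the 1 of 3 tested that fell in IR+CF-2 against Con. The other 5 did not exceed 1.01 CPM: Cpa3 was at 0.907 CPM and Tpsb2 at 1.01 CPM in IR+CF-2 2, the library with the lowest Il1rl1 of that group, and at 0 and 0.0741 CPM in IR+CF-2 1, the library with the highest. Fcer1a was at 0 in every library but IR+CF-2 2, at 0.252 CPM. Fibroblast markers summed to 640 to 1460 CPM in Con, 524 to 1540 in IR and 1720 to 3490 in IR+CF-2, with 2 of 8 called higher in IR+CF-2 against Con. Their sum was 3490 CPM in IR+CF-2 2 and 2040 CPM in IR+CF-2 1, the libraries with the lowest and highest Il1rl1 of that group. The part of these cells in the result was not tested.

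Among the remaining IL-1 family genes, no other passed the test. Il1r2, the decoy receptor, was at 0.443 to 0.531 CPM in Con and at 3.53, 0.832 and 0.925 in IR+CF-2, with no overlap and a fold change of 1.72 ± 0.68 (adjusted p = 0.106). The accessory chain Il1rap was wholly higher in IR+CF-2 than in IR, at 0.33 ± 0.21 (adjusted p = 0.523). Il18 had a fold change of 0.69 ± 0.84 in IR+CF-2 against Con (adjusted p = 0.602), with IR+CF-2 2 at 122 CPM and the other two libraries at 8.72 and 18.2.

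**Figure D4:**
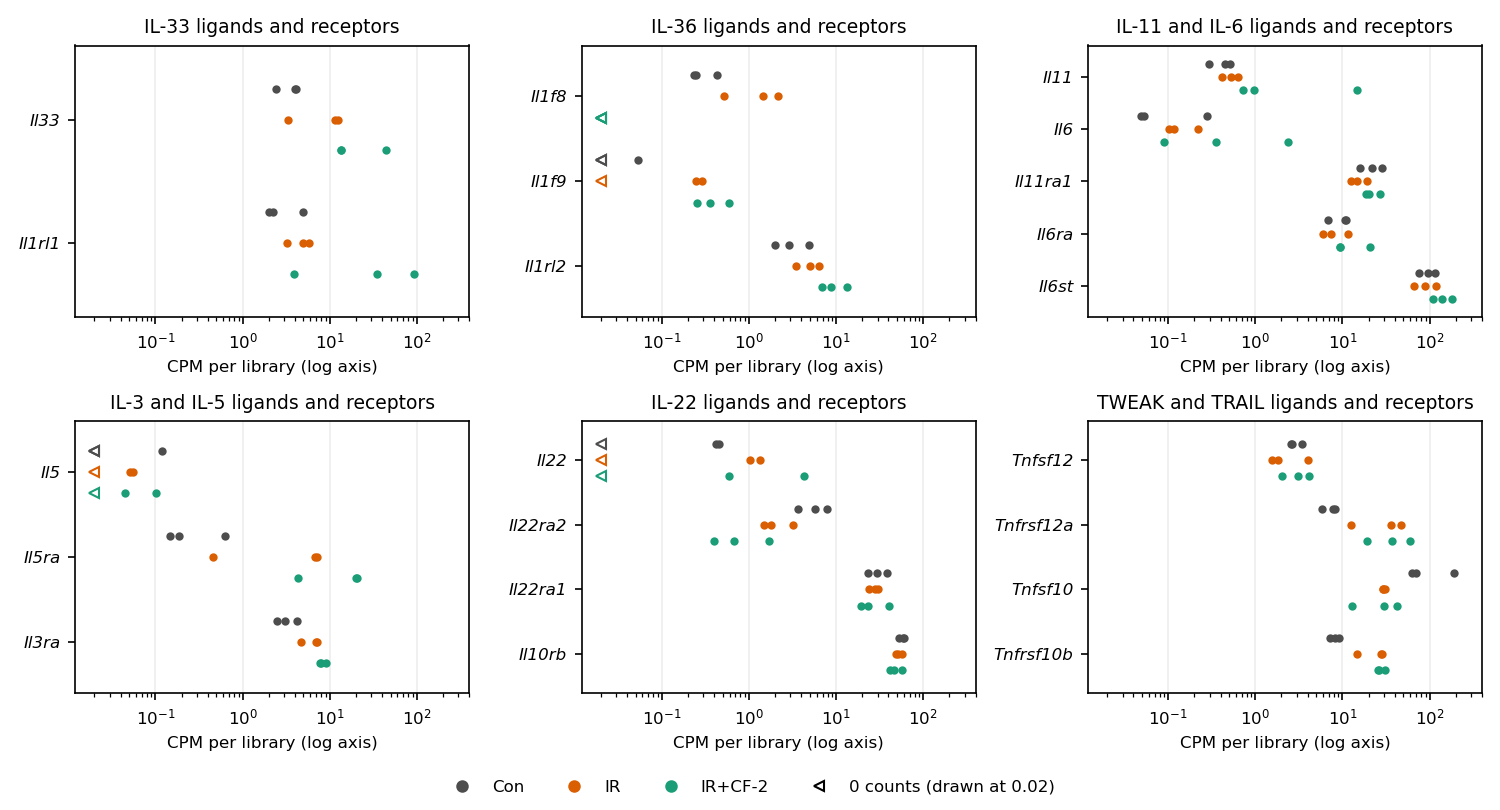
CPM in each library for ligands and receptors of 6 systems, on a log axis, with open triangles for 0 counts. Il33, Il3ra and Il5ra stand higher in IR+CF-2 than in Con, Il1rl1 does so in IR+CF-2 1 and 3, Il22ra2 and Tnfsf10 stand lower, and Il5 and Il6 stay near the floor in most libraries.

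In the common gamma chain family, on whose receptors lymphocytes depend for survival and growth, 1 ligand and 2 receptor genes fell in IR+CF-2 against Con. Of all tested genes, 7.95% were lower there. The ligand Il15 (chromosome 8, 82331632 to 82403222, minus strand), which sustains intraepithelial lymphocytes and NK cells, was at 16.8, 25.4 and 18.6 CPM in Con, 13.4, 14.8 and 18.5 in IR, and 6.25, 12.1 and 5.96 in IR+CF-2. Il15 fell by 1.44 ± 0.32 in IR+CF-2 against Con (adjusted p = 0.0206) and did not overlap with IR, from which it differed by -1.05 ± 0.32 (adjusted p = 0.189). The call was lost without Con 3, Con 4, IR+CF-2 1 or IR+CF-2 3 (adjusted p between 0.0614 and 0.0738). Its private receptor chain Il15ra had a fold change of -0.63 ± 0.27 in the same comparison (adjusted p = 0.133).

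Il2rb (chromosome 15, 78479256 to 78495271, minus strand), the signalling chain shared by IL-2 and IL-15, was at 6.82, 12.4 and 6.24 CPM in Con, 4.12, 3.74 and 3.34 in IR and 4.6, 2.37 and 2.89 in IR+CF-2. Every irradiated library was below every Con library. Il2rb fell by 1.49 ± 0.36 in IR+CF-2 against Con (adjusted p = 0.0255) and had a change of -1.21 ± 0.36 in IR against Con (adjusted p = 0.0866). Il7r (chromosome 15, 9505788 to 9530176, minus strand), the IL-7 receptor of lymphocytes, went from 2.04, 3.58 and 2.55 CPM in Con to 1.14, 1.51 and 1.04 in IR+CF-2, and was at 1.28, 0.989 and 0.977 in IR. Il7r fell by 1.27 ± 0.31 in IR+CF-2 against Con (adjusted p = 0.0275), and its change of -1.36 ± 0.32 in IR against Con was just short of the test (adjusted p = 0.0533). The Il2rb call was lost without Con 2, Con 3, Con 4, IR 3 or IR+CF-2 3 (adjusted p between 0.0506 and 0.0809), and the Il7r call without Con 3, Con 4, IR+CF-2 1 or IR+CF-2 3 (between 0.0756 and 0.0924).

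Of the 8 receptor genes of this family, 6 had IR libraries wholly below Con (14.2% of all tested genes did), and 0 passed the edgeR test in that comparison, with 5 at an unadjusted p under 0.05, Il2ra in the other direction among them. The 6 include Il21r at -1.22 ± 0.36 (adjusted p = 0.0854) and the shared chain Il2rg at -1.09 ± 0.35 (adjusted p = 0.11), whose locus overlaps another gene on the same strand. In IR+CF-2 against Con, 2 of 8 fell (7.95% of all tested genes did) and the median was -0.61. The other 6 overlapped Con, among them Il21r at -0.60 ± 0.35 and Il2rg at -0.33 ± 0.35 (adjusted p = 0.256 and 0.538). The ligand Il7 stood the other way in IR, at 8.02, 8.1 and 9.84 CPM against 5.29, 3.61 and 5.47 in Con, a change of 0.86 ± 0.38 (adjusted p = 0.209). Of 10 markers of T and NK cells, 4 fell in IR against Con and 8 in IR+CF-2 against Con. Their summed level was 32.2 to 52.7 CPM in Con, 13.1 to 15.5 in IR and 10.7 to 13.5 in IR+CF-2, with Cd8a lower by 2.06 ± 0.39 and 4.19 ± 0.43 on the log2 scale. Their part in the result was not tested. The other two receptors of the family were not lower in IR. Il2ra, the IL-2 receptor chain of activated and regulatory T cells, is named after its values were seen. It was at 0.591, 0.99 and 0.956 CPM in Con, 3.11, 2.25 and 0.951 in IR, and 1.63, 0.63 and 0.971 in IR+CF-2, a change of 1.27 ± 0.50 in IR against Con with overlap (adjusted p = 0.164). Il4ra, the IL-4 receptor chain and the most abundant of the family per length, went from 71 to 76.3 CPM in Con to 65.8 to 139 in IR and 53 to 181 in IR+CF-2, and did not pass (adjusted p = 0.439 and 0.425 against Con).

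The receptor genes of IL-3 and IL-5, cytokines of myeloid growth, rose in IR+CF-2 against Con. Il5ra (chromosome 6, 106710357 to 106749037, minus strand), the IL-5 receptor known from eosinophils and a subset of B cells, was at 0.148, 0.189 and 0.637 CPM in Con, 7.14, 6.87 and 0.463 in IR, and 20.6, 4.28 and 20 in IR+CF-2. IR 4 stood within the Con range, and all 3 IR+CF-2 libraries above it. Il5ra rose by 5.43 ± 1.11 in IR+CF-2 against Con (adjusted p = 0.0163), and its change of 3.86 ± 1.06 in IR against Con did not pass (adjusted p = 0.0741). This was the largest fold change among the members called higher. Leaving out Con 2, Con 3 or Con 4 ended the call (adjusted p = 0.0606, 0.0623 and 0.0508). The 4 eosinophil markers, 2 of them tested, summed to 3.32 to 6.86 CPM in Con, 2.64 to 3.79 in IR and 1.41 to 1.72 in IR+CF-2. Most of each sum was Siglecf, which fell by 1.99 ± 0.36 in IR+CF-2 against Con. The granule gene Epx reached 0.306 CPM and Prg2 0.514 CPM at most. The part of these cells in the result was not tested. Il5 itself did not exceed 0.118 CPM.

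Il3ra (chromosome 14, 14346275 to 14356011, plus strand) was at 3.08, 2.52 and 4.25 CPM in Con, 7.09, 7.01 and 4.63 in IR, and 8.97, 7.86 and 7.7 in IR+CF-2. The 3 groups did not overlap at all, with IR between the others. Il3ra rose by 1.22 ± 0.24 in IR+CF-2 against Con (adjusted p = 0.0155), and its change of 0.92 ± 0.24 in IR against Con was short of the test (adjusted p = 0.0679). It did not pass without Con 2, Con 3 or IR+CF-2 1 (adjusted p between 0.0552 and 0.0581), and the gene overlaps an antisense transcript on the other strand. Il13ra1, whose level is given above, had a change of 0.44 ± 0.27 (adjusted p = 0.284).

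Genes of the IL-6 and IL-12 families did not pass the test in any of the 3 comparisons in the edgeR fit as reported, with 3 ligands and 5 receptors tested. Il11, a stromal cytokine of the IL-6 family, came nearest. It was at 0.295, 0.519 and 0.451 CPM in Con, 0.639, 0.522 and 0.411 in IR, and 14.7, 0.731 and 0.971 in IR+CF-2. IR+CF-2 1 was far above all others, but the remaining IR+CF-2 libraries also lay above every Con and IR library. The change in IR+CF-2 against Con was 3.58 ± 1.09 (adjusted p = 0.0502) and became 0.89 without IR+CF-2 1 (adjusted p = 0.213). Il11 narrowly passed with RLE scaling and with robust = FALSE in edgeR (adjusted p = 0.0495 in the latter). It did not pass with limma-voom or without the filter (adjusted p = 0.222 and 0.121). With a block for the library number the change was 0.86 (adjusted p = 0.238). Il6 was at 2.35 CPM in IR+CF-2 1 and at most 0.353 CPM in the other 8 libraries. Their shared signal transducer Il6st was at 111 to 182 CPM in IR+CF-2 and 76.6 to 115 CPM in Con, a change of 0.49 ± 0.22 (adjusted p = 0.157). Il11ra1, the receptor chain specific for IL-11, was at 12.5 to 28.1 CPM over the 9 libraries, and Il27, a ligand too low to be tested, at no more than 0.618 CPM. At an unadjusted p under 0.05 the 3 comparisons had 1, 2 and 2 genes of these families (IR against Con, IR+CF-2 against IR, IR+CF-2 against Con).

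In the IL-10 and IL-17 families 1 of 5 tested receptors each fell in IR+CF-2 against Con, where 7.95% of all tested genes were lower. Il22ra2 (chromosome 10, 19621998 to 19634681, plus strand) encodes the soluble IL-22 binding protein, which keeps IL-22 from its receptor on epithelium. It was at 3.62, 7.9 and 5.68 CPM in Con, 1.8, 3.21 and 1.49 in IR, and 0.395, 1.71 and 0.677 in IR+CF-2. All irradiated libraries were below all Con libraries. Il22ra2 fell by 2.75 ± 0.58 in IR+CF-2 against Con (adjusted p = 0.0181), with a change of -1.43 ± 0.55 in IR against Con (adjusted p = 0.161). The call was lost without Con 3, Con 4, IR+CF-2 1 or IR+CF-2 3 (adjusted p between 0.0559 and 0.0594). Its ligand Il22, a cytokine of epithelial repair, was at 0.419, 0 and 0.451 CPM in Con, 1.34, 1.04 and 0 in IR, and 4.25, 0 and 0.587 in IR+CF-2, so that 1 library of each group had 0 counts. The signalling receptor Il22ra1 had a change of -0.25 ± 0.29 (adjusted p = 0.584), and its partner chain Il10rb one of -0.34 ± 0.14 (adjusted p = 0.122). Dendritic cells are a known source of the binding protein. Their 5 markers summed to 13.9 to 17.6 CPM in Con and 19.2 to 26 in IR+CF-2, with 2 of 5 called lower, and their part in the result was not tested.

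Il17rb (chromosome 14, 29996135 to 30008896, minus strand) encodes a receptor chain of the IL-17 family that tuft cells express. Its levels were 2.76, 3.51 and 2.76 CPM in Con, 1.16, 1.21 and 2.03 in IR, and 1.16, 1.79 and 1.04 in IR+CF-2, so that every irradiated library was below Con. Il17rb fell by 1.29 ± 0.35 in IR+CF-2 against Con (adjusted p = 0.0358), while the change of -1.03 ± 0.35 in IR against Con did not pass (adjusted p = 0.123). The call was lost without Con 2, Con 3, Con 4, IR+CF-2 1 or IR+CF-2 3 (adjusted p between 0.0779 and 0.116), and the gene overlaps Actr8 on the other strand. Il17rb is itself 1 of the 5 tuft cell markers listed, all of which fell in IR+CF-2 against Con, among them the channel gene Trpm5 by 3.38 ± 0.54. The list summed to 52.4 to 55.1 CPM in Con, 22.8 to 33.1 in IR and 15.8 to 27.5 in IR+CF-2, and its part in the result was not tested. The IL-17 ligands were low, Il17b at no more than 0.135 CPM and Il17c at no more than 0.371 CPM, except Il17d at 4.37 to 7.67 CPM. Il17rc and Il17re, epithelial receptor chains, were wholly lower in IR than in Con, at -0.37 ± 0.16 and -0.80 ± 0.37 (adjusted p = 0.2 and 0.222).

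Of 13 tested TNF superfamily ligands, Ltb fell in IR against Con, and Ltb and Tnfsf10 fell in IR+CF-2 against Con. Of all tested genes, 0.845% and 7.95% were lower in these 2 comparisons. Ltb (chromosome 17, 35194439 to 35196320, plus strand) encodes lymphotoxin beta, which lymphocytes and lymphoid tissue inducer cells use to build and maintain gut lymphoid tissue. It was at 2.59, 3.32 and 3.24 CPM in Con, 1.02, 1.65 and 1.13 in IR, and 0.988, 1.13 and 1.22 in IR+CF-2. The Con libraries were above all 6 irradiated ones. Ltb fell by 1.27 ± 0.29 in IR against Con (adjusted p = 0.0494) and by 1.56 ± 0.29 in IR+CF-2 against Con (adjusted p = 0.0128), and IR+CF-2 differed from IR by -0.28 ± 0.29 (adjusted p = 0.699). The first of these calls was lost in 15 of 20 alternatives, including RLE and upper quartile scaling (adjusted p = 0.0595 and 0.0524), and without any one library other than IR+CF-2 2 (between 0.0625 and 0.157). The second was lost without Con 4 or IR+CF-2 1 (0.0515 and 0.0507). Markers of group 3 innate lymphoid cells, which express Ltb, summed to 158 to 202 CPM in Con, 84.7 to 148 in IR and 72.7 to 135 in IR+CF-2, and 1 of 5 fell in IR against Con and 2 of 5 in IR+CF-2 against Con. Their part in the result, and that of the T cells described above, was not tested.

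Ltb is the 1 member called lower in IR against Con, and its RefSeq promoter window is shown for that reason (build GRCm38.p6, plus strand, chr17:35194257-35194556, 250 bases before to 50 after the start). Capitals mark a match to the STAT motif TTCNNNGAA at -172 and a match to the kappaB motif at -87, and the matches do not overlap.
Ltb: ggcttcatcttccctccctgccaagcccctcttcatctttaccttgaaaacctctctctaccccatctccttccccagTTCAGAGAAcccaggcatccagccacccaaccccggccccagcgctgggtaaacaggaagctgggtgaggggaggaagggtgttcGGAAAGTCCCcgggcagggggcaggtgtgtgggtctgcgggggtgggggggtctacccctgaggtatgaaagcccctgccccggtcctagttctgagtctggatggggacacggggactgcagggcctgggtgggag
Of the 32851 windows searched on both strands, 8.3% hold a STAT match and 4.51% a kappaB match.

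Tnfsf10 (chromosome 3, 27317028 to 27342427, plus strand) encodes TRAIL, the ligand of the death receptor gene Tnfrsf10b. Its levels were 70.1, 192 and 63.7 CPM in Con, 29.3, 29.4 and 30.5 in IR, and 42.3, 30.3 and 13 in IR+CF-2. Con 3 stood far above the other Con libraries, and every irradiated library was below all of Con. Tnfsf10 fell by 2.06 ± 0.53 in IR+CF-2 against Con (adjusted p = 0.0295), with a change of -1.90 ± 0.52 in IR against Con (adjusted p = 0.0749). Without Con 3 the change against Con was -1.29 (adjusted p = 0.0848), and the call was also lost without Con 2, Con 4, IR 3, IR+CF-2 1 or IR+CF-2 3 (between 0.0505 and 0.0737). Tnf itself was at 3.57, 7.12 and 2.97 CPM in Con, 12.2, 17 and 5.11 in IR, and 17.2, 8.9 and 11.2 in IR+CF-2. The change of Tnf was 1.28 ± 0.49 in IR against Con and 1.33 ± 0.49 in IR+CF-2 against Con, both short of the test (adjusted p = 0.158 and 0.0893). Tnfsf13, the B cell ligand APRIL, had a change of -1.47 ± 0.44 in IR against Con (adjusted p = 0.0906). Tnfsf13 and Tnfsf12 each overlap Tnfsfm13 and the antisense transcript Tnfsf13os, so the values of these 4 genes are uncertain.

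The TNF receptor superfamily had 20 members, all tested. In IR+CF-2 against Con 6 of them rose and 1 fell, where 11.2% of all tested genes were higher and 7.95% lower. Tnfrsf10b alone rose in IR against Con, where 2.37% of all tested genes were higher. Tnfrsf10b (chromosome 14, 69767472 to 69784411, plus strand) encodes the mouse death receptor for TRAIL and is a known target of p53. Its levels were 7.12, 8.27 and 9.24 CPM in Con, 27.7, 28.7 and 14.6 in IR, and 30.7, 26.3 and 25.8 in IR+CF-2. All irradiated libraries stood above all Con libraries, with IR 4 the lowest of them. Tnfrsf10b rose by 1.51 ± 0.24 in IR against Con (adjusted p = 0.0296) and by 1.64 ± 0.24 in IR+CF-2 against Con (adjusted p = 0.0083), and IR+CF-2 differed from IR by 0.14 ± 0.23 (adjusted p = 0.826). The first call was lost without Con 2, Con 3, Con 4, IR 2, IR 3 or IR+CF-2 3 (adjusted p between 0.0502 and 0.162), and the second held without any one library. The receptor thus rose where the levels of its ligand Tnfsf10 were lower. Tnfrsf11b, a soluble decoy that also binds TRAIL, was at 4.19, 2.83 and 4.38 CPM in Con, 15.8, 21.3 and 3.03 in IR and 10.7, 8.52 and 6.66 in IR+CF-2, and did not pass (adjusted p = 0.0999 and 0.192 against Con).

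Tnfrsf8 (chromosome 4, 145267137 to 145315164, minus strand) encodes CD30, a receptor of activated lymphocytes. It was at 0.345, 0.0943 and 0.531 CPM in Con, 1.07, 0.907 and 1.23 in IR, and 4.79, 16.2 and 2.55 in IR+CF-2. The 3 groups did not overlap, and IR+CF-2 2 was the highest library. Tnfrsf8 rose by 4.51 ± 0.80 in IR+CF-2 against Con (adjusted p = 0.0117), and was 2.76 ± 0.72 above IR without passing the edgeR test (adjusted p = 0.147). Without IR+CF-2 2 the change against Con was 3.43 (adjusted p = 0.0029), and that call held without any one library. Its ligand Tnfsf8 was at 0.743 to 1.2 CPM in Con and 0.593 to 0.983 CPM in IR+CF-2.

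Tnfrsf12a (chromosome 17, 23675445 to 23677468, minus strand) encodes Fn14, the receptor for TWEAK, which is induced in injured epithelium. It was at 8.3, 7.75 and 5.89 CPM in Con, 36.2, 46.7 and 12.5 in IR, and 59.8, 19.4 and 37.1 in IR+CF-2. Every irradiated library was above every Con library. Tnfrsf12a rose by 2.30 ± 0.51 in IR+CF-2 against Con (adjusted p = 0.0198), and its change of 2.09 ± 0.50 in IR against Con was short of the test (adjusted p = 0.0571). The call was lost without Con 2, Con 3, Con 4 or IR+CF-2 1 (adjusted p between 0.0623 and 0.079). The ligand gene Tnfsf12 had a change of -0.02 ± 0.38 (adjusted p = 0.981).

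Both receptors of TNF rose in IR+CF-2 against Con. Tnfrsf1a (chromosome 6, 125349362 to 125362484, plus strand) was at 82.7, 86 and 72.6 CPM in Con, 120, 135 and 93.1 in IR, and 184, 116 and 124 in IR+CF-2, and rose by 0.71 ± 0.20 (adjusted p = 0.0403). Tnfrsf1b (chromosome 4, 145213463 to 145246870, minus strand), the receptor without a death domain found mainly on immune cells, was at 33, 51.1 and 28.8 CPM in Con, 71.9, 68 and 49.1 in IR, and 158, 69.3 and 76.9 in IR+CF-2, and rose by 1.31 ± 0.35 (adjusted p = 0.0338). IR+CF-2 1 was the highest library for both. Without IR+CF-2 1 the changes were 0.47 and 0.84 (adjusted p = 0.119 and 0.0975). The Tnfrsf1a call was also lost without Con 2, Con 3, Con 4, IR 2, IR 3 or IR+CF-2 3 (adjusted p between 0.059 and 0.142), and the Tnfrsf1b call without Con 2, Con 4, IR 2, IR 3 or IR+CF-2 3 (between 0.0518 and 0.12). Tnfrsf21 (chromosome 17, 43016555 to 43089189, plus strand), the death receptor known as DR6, rose by 0.47 ± 0.13 (adjusted p = 0.0416), from 62.7, 55.4 and 53 CPM in Con to 70.4, 100 and 83 in IR+CF-2. That call was lost without Con 2, Con 3, Con 4, IR 2 or IR+CF-2 3 (adjusted p between 0.0627 and 0.149).

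Neutrophil and macrophage markers were also higher in IR+CF-2 than in Con, where 6 receptor genes of TNF ligands and Il1rn rose. Of 6 tested neutrophil markers, 1 rose in IR against Con and 6 in IR+CF-2 against Con, with sums of 1.59 to 3.28 CPM in Con, 14 to 77.7 in IR and 219 to 351 in IR+CF-2, most of it Ly6g at means of 1.01, 52.4 and 253 CPM. In IR+CF-2 against IR 0 of the 6 neutrophil markers passed the edgeR test, although their sums do not overlap. These sums follow Ly6g, which was highest in IR+CF-2 3 at 339 CPM. That library had the lowest S100a9 and Csf3r of its group, 2.12 and 2.48 CPM, but not the lowest S100a8. S100a8 stayed low, at means of 0.0485, 0.579 and 5.88 CPM in Con, IR and IR+CF-2. Of 8 macrophage markers, 0 rose in IR against Con by edgeR and 6 in IR+CF-2 against Con, with sums of 84.8 to 123, 90.9 to 150 and 153 to 310 CPM. Their part in the results was not tested.

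Tnfrsf13c (chromosome 15, 82221743 to 82224369, minus strand), the BAFF receptor of B cells, fell. It was at 1.65, 0.354 and 2.07 CPM in Con, 0.116, 0.0549 and 0.18 in IR, and 0.296, 0.0504 and 0.0903 in IR+CF-2, where most irradiated libraries were within a few counts of 0. Tnfrsf13c was tested only because of its counts in Con, the group where it was highest. Tnfrsf13c fell by 3.27 ± 0.80 in IR+CF-2 against Con (adjusted p = 0.0266), and its change of -3.46 ± 0.83 in IR against Con was short of the test (adjusted p = 0.0559). Leaving out Con 2, Con 4 or IR+CF-2 3 ended it (adjusted p = 0.0754, 0.0918 and 0.0867). Its ligand Tnfsf13b had a change of -0.01 ± 0.36 (adjusted p = 0.982). The plasma cell receptor gene Tnfrsf17 was wholly lower in IR than in Con, at -2.43 ± 0.65 (adjusted p = 0.0707). Of 7 B and plasma cell markers, 3 fell in IR against Con and 4 in IR+CF-2 against Con, and their sums were 397 to 590 CPM in Con, 266 to 350 in IR and 430 to 522 in IR+CF-2. Most of each sum was Jchain and Xbp1, genes of secretory cells. The B cell genes had lower means in both irradiated groups, with Con, IR and IR+CF-2 means of 3.64, 0.423 and 1.04 CPM for Cd79b, 3.23, 1.07 and 0.779 CPM for Ms4a1 and 2.67, 0.0708 and 0.0504 CPM for Pax5. The part of these cells in the result was not tested.

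A few further members had groups that did not overlap or high levels in their class without passing the test. Il16, a chemoattractant of CD4 T cells that is unrelated to the other families, was at 4.24, 3.16 and 3.37 CPM in Con, 1.89, 1.76 and 1.77 in IR, and 3.04, 3.2 and 2.32 in IR+CF-2. IR lay below both other groups, at -0.99 ± 0.23 against Con (adjusted p = 0.0533), and IR+CF-2 was 0.56 ± 0.23 above IR (adjusted p = 0.308). Tnfrsf23, a mouse decoy receptor for TRAIL, was wholly higher in IR than in Con, at 1.08 ± 0.39 (adjusted p = 0.139), and its neighbour Tnfrsf22 was wholly higher in IR+CF-2 than in IR, at 1.02 ± 0.44 (adjusted p = 0.332). Both overlap an antisense transcript. Il34, a ligand of the macrophage receptor CSF1R, ranged from 1.18 to 6.04 CPM in IR alone and had a change of 1.27 ± 0.64 in IR+CF-2 against Con (adjusted p = 0.186).

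Genes of the same pathways under other names were described from lists that hold no member. Of 12 tested TNF receptor adaptor genes, 1 rose and 1 fell in IR against Con and 2 rose and 2 fell in IR+CF-2 against Con. Of all tested genes, 2.37% were higher and 0.845% lower in IR against Con. The shares were 11.2% and 7.95% in IR+CF-2 against Con. Traf1 fell by 1.45 ± 0.24 and 1.86 ± 0.25 (adjusted p = 0.0304 and 0.00765), and Traf4 rose by 0.79 ± 0.14 and 0.82 ± 0.14 (adjusted p = 0.0304 and 0.01). Of 9 tested TNF superfamily genes with other names, Eda2r, the receptor of the ectodysplasin form A2, rose by 3.90 ± 0.45 and 4.01 ± 0.45 (adjusted p = 0.0222 and 0.00578), and Cd27 fell by 1.58 ± 0.48 in IR+CF-2 against Con (adjusted p = 0.0482). Lif, a cytokine that signals through Il6st, rose by 1.81 ± 0.40 in IR+CF-2 against Con (adjusted p = 0.02), 1 of 12 genes of its list. Crlf2, a receptor chain that pairs with Il7r to bind the epithelial cytokine TSLP, rose by 1.38 ± 0.26 in IR against Con (adjusted p = 0.0369). Of 13 NF-kappaB genes 2 rose in IR+CF-2 against Con, Bcl3 by 1.27 ± 0.29 and Rel by 0.72 ± 0.20 (adjusted p = 0.0226 and 0.0403). Of 16 genes of Janus kinases, STATs and their feedback, 0 rose and 2 fell in that comparison, Socs2 and Stat4. Stat4 also fell in IR against Con. Of 11 IL-1 and Toll adaptor genes, Irak1 rose and Sigirr fell in IR+CF-2 against Con. Of 8 tested genes of colony-stimulating factors and their receptors, 2 rose and 2 fell there. In IR+CF-2 against IR 0 genes of these pathway lists passed the edgeR test.

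**Figure D5:**
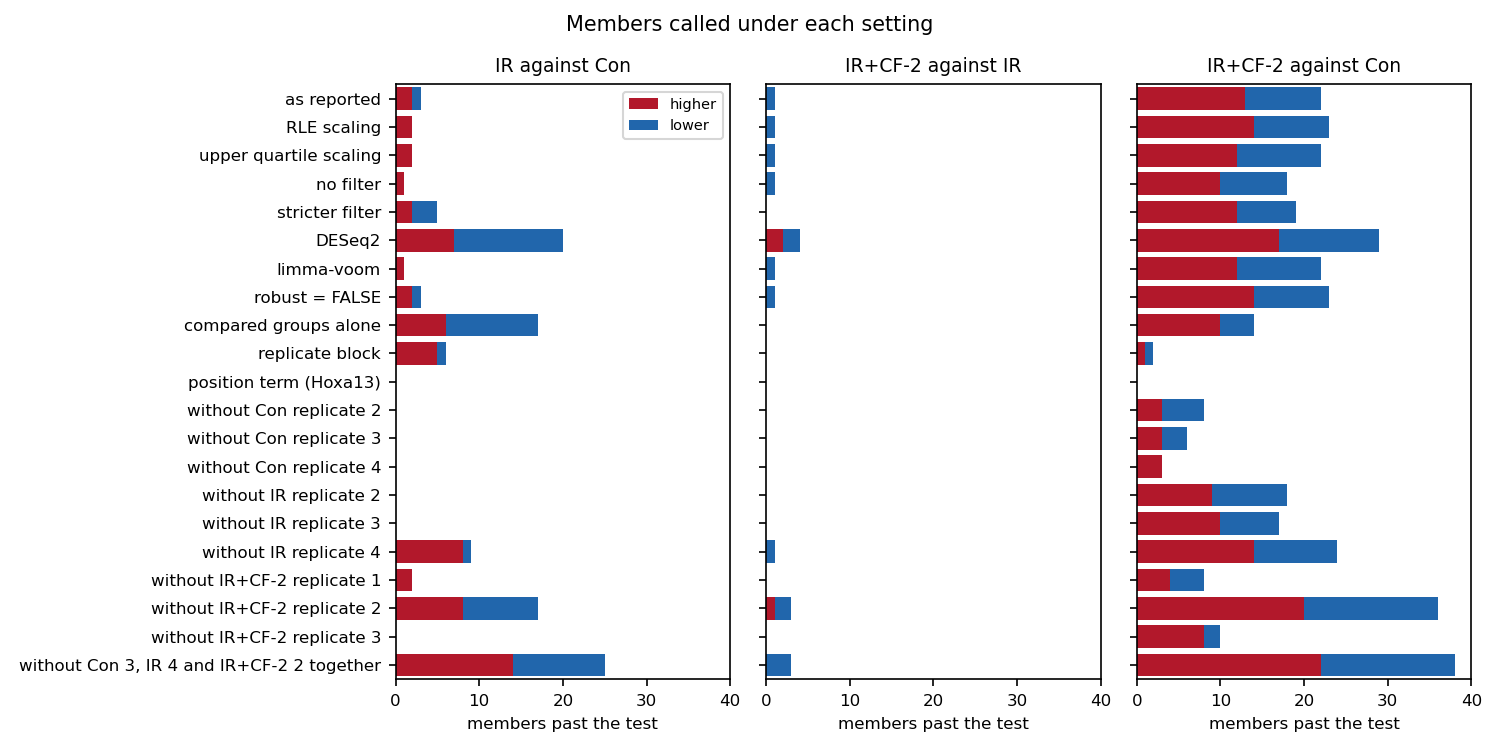
Number of members past the test, higher and lower, as reported and under each of 20 alternatives, in the 3 comparisons. The bars for IR against Con run from 0 to 25 and those for IR+CF-2 against Con from 0 to 38, and both are 0 with the Hoxa13 term.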

How the data were processed

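Poly(A) RNA was sequenced from 9 mouse colons. Per the file headers the deposited table holds raw counts and FPKM values per gene and library, both made by the authors, and for 32497 genes the FPKM equals the count over the library total and 1 length per gene, within 0.01 bases. Per the submitters' processing notes the tools included HISAT2 and featureCounts, with builds GRCm38 and mm10. The sources used here do not say whether counting used strand. The fit used edgeR 4.0.16 under R 4.3.3 (filterByExpr, TMM, quasi-likelihood F-test with robust = TRUE, all 9 libraries, group as the only term). Tests were 2-sided, with Benjamini-Hochberg adjustment over 19174 genes at 0.05. The biological coefficient of variation was 30.6%, and standard errors were obtained as |log2 fold change| over the root of F. CPM scales counts to a library total of 1000000, and 3 counts, the floor, are 0.0677 to 0.0871 CPM. Floors and intervals (95%) cover counting error only. The pipeline was tested on simulated data.

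Members and lists were chosen with earlier results of these data known. Named are members past the test, up to 8 higher and 8 lower with the largest fold changes among those with no overlap and at least 1 CPM in the higher group, the 2 with the highest FPKM of each role class, and ligand or receptor partners of called members; 1 antisense transcript of the rule is not printed. List genes are named only where past the test, up to 4 of a list; 1 listed marker is not reported here. Coordinates are from GENCODE M21 (GRCm38), promoter letters from RefSeq (GRCm38.p6), where 88 members have a window. Alternatives were scaling by RLE or upper quartile, omitting the filter or requiring 1 CPM in 3 libraries, DESeq2 1.42.0, limma-voom (limma 3.58.1), robust = FALSE, fits of only the groups compared, a block for the library number, a Hoxa13 term, and leaving out libraries.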

Additional observations from a re-analysis of the deposited data

How the results depend on the processing

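The counts of members called are given for IR against Con, IR+CF-2 against IR and IR+CF-2 against Con in turn, where they were 3, 1 and 22 as reported. Settings that moved a count by more than 1.5 times were DESeq2 (20 and 4 in the first 2 comparisons), no filter (1 in the first), the stricter filter (5 and 0 in the first 2), limma-voom (1 in the first), the fit on the compared groups alone (17, 0 and 14), the Hoxa13 term (0, 0 and 0), and the fit leaving out IR 4, Con 3 and the second IR+CF-2 library together (25, 3 and 38), which stood apart in an earlier analysis. Leaving out 1 library at a time gave 0 to 17, 0 to 3 and 3 to 36. With the replicate number as a block the counts were 6, 0 and 2. Deviations from the group means correlated between 0.04 and 0.26 for libraries of equal number, not above 0.1 in every pair. For libraries of unequal number they correlated between -0.21 and 0.26, and Con 4 correlated best with IR+CF-2 3. These correlations cannot decide whether libraries of equal number shared more than a number. Of the fold changes of named members, 794 values stayed on their side of the test in the same direction, 184 lost the call, 50 gained it and 1 reversed, Il1rl2 in IR+CF-2 against IR, at -0.47 with the Hoxa13 term (adjusted p = 0.999). Scaling by RLE or upper quartile moved the median of all genes by less than 0.1 on the log2 scale. The cause of these shifts was not tested. With 3 mice a group, and members near the floor in many libraries, a call that was missed does not show that levels were alike.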
